A study of Mus musculus with 2 samples.

Results

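The genes described here were the numbered mouse zinc finger genes of the Zfp series, taken from the GENCODE annotation of GRCm38 by their symbol, the letters Zfp followed by a number, with Zfp42 left out. The rule gave 357 of 20720 protein-coding genes on the autosomes. A promoter was the window within 1000 bp of the annotated transcription start, taken as the outermost 5′ end of the gene over its annotated transcripts. The last exon was the final exon of the protein-coding transcript with the longest coding sequence, which need not begin at that start. The 1-exon transcript of Zfp579, for example, began 818 bp after it. Which starts were used in the myotubes was not tested. CpG cytosines were compared where both libraries had at least 5 reads and where the cytosine lay outside CCGG and TCGA, the sites cut by the enzymes MspI and TaqαI. With at least 5 such cytosines required per region, 250 Zfp promoters of 13071 tested promoters and 106 Zfp last exons of 3872 tested last exons could be described. Of the 357 genes, 62 promoters and 193 last exons had 0 compared cytosines, 94 genes had both regions tested, and 95 had neither.

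DNA methylation was read by reduced representation bisulfite sequencing, in which bisulfite turns cytosine into a base sequenced as T unless a methyl group protects it, so that the reads left with C are the methylated ones. Both libraries came from genomic DNA of mouse C3H myoblasts that had been differentiated into myotubes, the fused multinucleate cells of skeletal muscle. One library was from cells given a control small interfering RNA (siCon) and the other from cells given one directed at H19, an imprinted long non-coding transcript (siH19), both harvested 48 h after transfection. There was 1 library per group and no replicate, so each test on reads compared 2 libraries and not 2 conditions. The siCon library held 104999613 reads over 5453019 cytosines and the siH19 library 106372792 reads over 5266846 cytosines. No RNA was measured in these libraries, so neither the loss of H19 nor the expression of muscle genes could be checked from them. Compared cytosines in Zfp promoters had a median of 31 reads in siCon and 33 in siH19, and those in Zfp last exons had 19 and 21. Intervals below are 95% intervals that cover counting error only, because reads amplified by PCR are not independent molecules.

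C2H2 zinc finger proteins bind DNA through tandem fingers, each a short fold in which a pair of cysteines and a pair of histidines hold a zinc ion. Many of them also carry a KRAB box, which recruits TRIM28 and, through it, the histone methyltransferase SETDB1 and other repressors, and is known for silencing retroelements and for keeping the methylation of imprinted regions. Their genes often stand in tandem clusters, and the fingers are usually encoded by a single long last exon. In the coding sequences used here, 342 of the 357 genes encoded at least 1 C2H2 finger, with a median of 10 and a highest count of 36. A pattern for the KRAB box was matched in 165 genes. The pattern was strict and missed genes known to carry the box, Zfp445 and Zfp568 among them, so the count is a lower limit. Of 3719 fingers, 3191 (85.8%) lay whole inside the last exon. The last exons had a median length of 2489 bp with 1301 coding bp, against 1123 bp and 171 coding bp in the other protein-coding genes. Symbols do not always match the fold: Zfp36, the mRNA-destabilising protein tristetraprolin, has CCCH fingers and matched no C2H2 finger, and 15 genes in all matched none.

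Stretches of sequence from the starts or last exons of some of these genes are printed here, with no gene shown at both ends. The 7 stretches below were chosen among the named genes to show a methylated and an unmethylated promoter, and methylated, intermediate and unmethylated last exons. They are read 5′ to 3′ on the gene's strand of GRCm38, and capitals mark CpGs with a compared cytosine.
Zfp541, upstream of the start, chr7:16061514-16061813, plus strand: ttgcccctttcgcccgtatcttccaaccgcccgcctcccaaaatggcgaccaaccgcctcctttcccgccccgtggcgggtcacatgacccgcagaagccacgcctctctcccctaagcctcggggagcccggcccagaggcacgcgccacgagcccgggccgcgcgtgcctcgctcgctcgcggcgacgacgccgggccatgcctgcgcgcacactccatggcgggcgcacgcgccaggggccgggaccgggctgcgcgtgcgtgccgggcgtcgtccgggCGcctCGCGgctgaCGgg
Zfp263, upstream of the start, chr16:3743793-3744092, plus strand: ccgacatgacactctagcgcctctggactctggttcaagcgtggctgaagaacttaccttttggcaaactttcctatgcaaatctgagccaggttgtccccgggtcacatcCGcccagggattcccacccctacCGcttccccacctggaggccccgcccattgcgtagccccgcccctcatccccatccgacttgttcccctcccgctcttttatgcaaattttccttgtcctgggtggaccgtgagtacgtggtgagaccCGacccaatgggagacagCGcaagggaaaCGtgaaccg
Zfp148, upstream of the start, chr16:33380728-33380835, plus strand: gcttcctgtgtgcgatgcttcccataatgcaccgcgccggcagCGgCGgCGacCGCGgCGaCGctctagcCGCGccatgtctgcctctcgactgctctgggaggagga
Zfp787, coding part of the last exon, chr7:6132418-6132717, minus strand: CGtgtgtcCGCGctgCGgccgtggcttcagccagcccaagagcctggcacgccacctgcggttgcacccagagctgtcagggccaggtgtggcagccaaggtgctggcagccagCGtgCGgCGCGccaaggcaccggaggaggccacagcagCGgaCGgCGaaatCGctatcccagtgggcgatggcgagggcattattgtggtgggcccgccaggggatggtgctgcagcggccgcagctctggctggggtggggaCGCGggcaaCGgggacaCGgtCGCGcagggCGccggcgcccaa
Zfp853, coding part of the last exon, chr5:143287710-143288009, minus strand: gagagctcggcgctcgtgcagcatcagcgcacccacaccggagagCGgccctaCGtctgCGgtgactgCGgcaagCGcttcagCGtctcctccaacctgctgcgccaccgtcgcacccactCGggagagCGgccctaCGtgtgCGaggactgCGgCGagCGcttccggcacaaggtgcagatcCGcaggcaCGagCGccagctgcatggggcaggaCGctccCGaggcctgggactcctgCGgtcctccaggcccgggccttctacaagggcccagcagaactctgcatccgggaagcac
Zfp771, coding part of the last exon, chr7:127254149-127254448, plus strand: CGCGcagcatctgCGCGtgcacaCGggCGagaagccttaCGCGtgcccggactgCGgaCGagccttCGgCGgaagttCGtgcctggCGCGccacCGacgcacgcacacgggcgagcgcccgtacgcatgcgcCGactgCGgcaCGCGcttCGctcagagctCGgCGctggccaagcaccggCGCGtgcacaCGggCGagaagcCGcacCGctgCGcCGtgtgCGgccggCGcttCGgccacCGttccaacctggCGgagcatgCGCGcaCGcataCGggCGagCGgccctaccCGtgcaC
Zfp281, coding part of the last exon, chr1:136625286-136625585, plus strand: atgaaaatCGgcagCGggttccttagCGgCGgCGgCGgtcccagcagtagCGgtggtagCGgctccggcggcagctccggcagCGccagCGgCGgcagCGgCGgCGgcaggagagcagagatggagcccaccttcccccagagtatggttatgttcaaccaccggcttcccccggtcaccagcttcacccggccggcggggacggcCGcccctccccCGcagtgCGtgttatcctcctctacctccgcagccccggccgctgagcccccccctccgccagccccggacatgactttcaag

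Over these stretches the share of methylated reads differed widely from gene to gene. In the Zfp541 stretch only 4 of 47 CpGs were compared, all at its end next to the start. Their 8 compared cytosines were at 58.1% in siCon (47.9 to 67.6) and 52.0% in siH19 (45.5 to 58.4). The 5 cytosines of the Zfp263 stretch were at 63.9% (53.1 to 73.4) and 74.3% (63.0 to 83.1), over 10 points apart with intervals that overlapped. The 9 of the Zfp148 stretch were at 0.538% and 0.385%. In the last exons, the 38 cytosines of the Zfp787 stretch were at 98.2% in both libraries, and single cytosines ranged from 90.9% to 100% in siCon. The 38 cytosines of the Zfp853 stretch were at 60.2% and 56.8%, with single cytosines from 13.9% to 96.7% in siCon. The Zfp771 stretch was at 0.858% (0.591 to 1.25) and 0.262% (0.138 to 0.497), and these intervals did not overlap. Its 44 compared CpGs include the CpG cut at the 3′ end of the stretch, printed as a single capital C. Over the whole last exon of Zfp771 the order was the other way, at 4.58% in siCon and 5.81% in siH19. The Zfp281 stretch was at 0.850% and 0.918%, and it lay inside the gene's promoter window. Coding sequence of a last exon with many CpGs was thus almost fully methylated in one gene and almost unmethylated in another, in both libraries alike.

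Zfp promoters were mostly unmethylated at the cytosines outside CCGG and TCGA. Over the 250 tested promoters the median level, the share of methylated reads summed over a region, was 1.37% in siCon and 1.49% in siH19. The interquartile range ran from 0.699% to 3.89% in siCon and from 0.684% to 4.71% in siH19. Cytosines inside those restriction sites were at 50.8% and 51.1% in Zfp promoters by summed reads, and with them kept the medians were 17.2% and 16.3%. The levels below therefore hold for cytosines outside the sites, and the part of the restriction sites in the difference was not tested. Over the 12821 tested promoters of the other protein-coding genes the median was 1.89% in each library, and the upper quartile was 12.4% in siCon and 12.3% in siH19. Levels under 10% were found in 210 Zfp promoters in siCon (84.0%) and 208 in siH19 (83.2%), against 72.4% and 72.3% of the other promoters. A level of 20% or more was found in 8.80% of Zfp promoters in siCon and 9.20% in siH19, against 18.9% and 19.1% of the others. No test of the family against the other genes was made, and the CpG content of the windows moved with the level. Zfp windows with an observed to expected CpG ratio of 0.6 or more had a median of 0.855% in siCon over 93 genes, those from 0.4 to 0.6 one of 1.96% over 118 genes, and those below 0.4 one of 2.61% over 39 genes. In the other genes the same 3 classes had medians of 1.14%, 3.29% and 28.9%. The widest gap therefore lay among promoters poor in CpG, where 7 of 39 Zfp promoters and 921 of 1576 other promoters reached 20% in siCon. Only 39 of the 121 Zfp genes in that class and 1576 of 8632 other genes were tested.

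**Figure D1:**
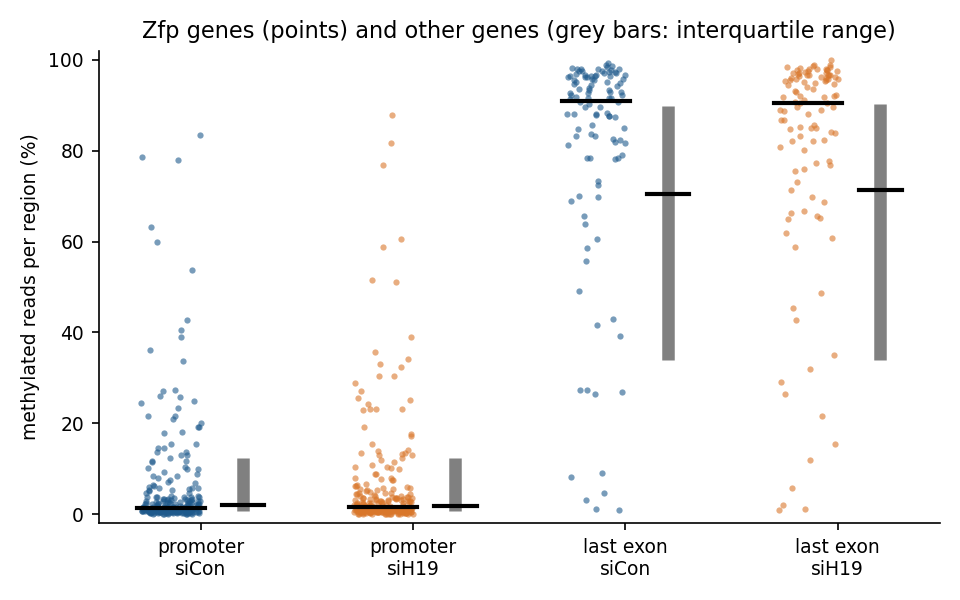
Share of methylated reads per region (y axis, %) in the siCon and siH19 libraries for each tested Zfp promoter (250 points per library) and last exon (106 points per library). Black lines are medians and grey bars the interquartile range of the other protein-coding genes; Zfp promoters gather near 0 with medians of 1.37% and 1.49%, and Zfp last exons near the top with medians of 91.0% and 90.6%.

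Levels stayed low downstream of the start. In the 100 bp just after the start, 1415 cytosines of 178 Zfp genes were at 4.39% in siCon and 5.29% in siH19. Between 900 and 1000 bp after the start, 267 cytosines of 36 Zfp genes were at 2.36% and 2.50%, where the other genes were at 11.6% and 11.4%. Upstream, the Zfp windows rose with distance as those of the other genes did. They were at 2.22% and 2.38% between 200 and 100 bp before the start, and at 7.10% and 7.64% between 500 and 400 bp before it. The step from 900 to 800 bp before the start stood at 22.8% in both libraries, but it held only 49 cytosines of 17 genes.

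**Figure D2:**
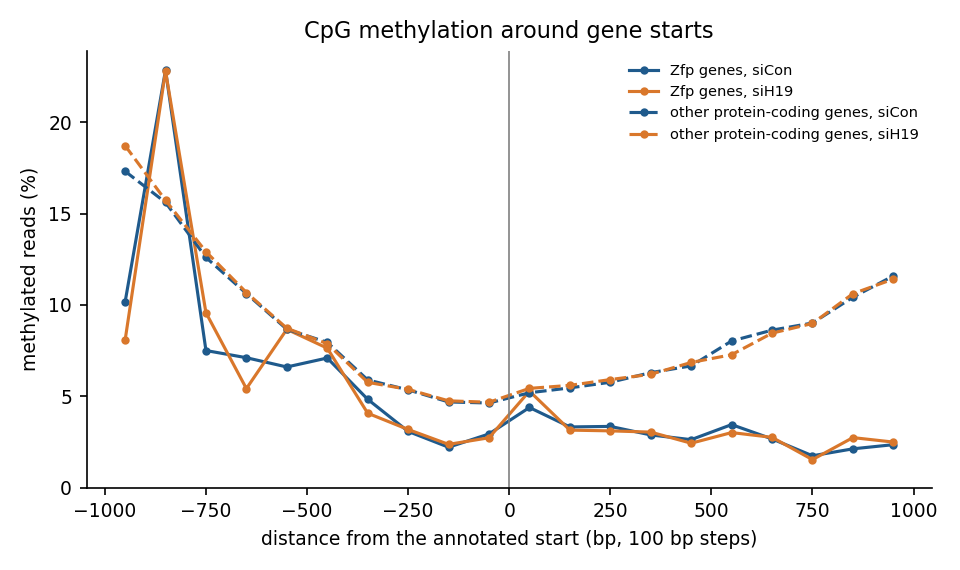
Methylated reads (y axis, %) in 100 bp steps from 1000 bp before to 1000 bp after the annotated start (x axis), for Zfp genes (solid) and other protein-coding genes (dashed) in siCon (blue) and siH19 (orange). The libraries run together, and after the start the Zfp lines stay at 5.29% or less while those of the other genes climb to 11.6% and 11.4%; the spike at 22.8% before the Zfp starts rests on 49 cytosines.

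A small group of Zfp promoters was methylated in both libraries. A level of 20% or more in both was found in 21 promoters, 18 of them with at least 10 cytosines, and 18 of the 21 had an observed to expected CpG ratio below 0.6. The promoter of Zfp541, a gene known for its role in male meiosis (chr7:16060814-16062814, 22 cytosines), had 254 of 304 methylated reads in siCon (83.6%, 79.0 to 87.3) and 585 of 762 in siH19 (76.8%, 73.6 to 79.6). The promoter of Zfp263 (chr16:3743093-3745093, 53 cytosines) had 936 of 1202 methylated reads in siCon (77.9%, 75.4 to 80.1) and 1243 of 1520 in siH19 (81.8%, 79.8 to 83.6). The intervals of the summed shares overlapped only at their ends for both genes, whereas reads compared at the same cytosine gave a weighted difference (siH19 minus siCon, averaged over cytosines with weights from their reads) of -7.29 points for Zfp541 and of -0.525 points for Zfp263.

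The next in rank followed the same pattern of like levels in both libraries. Zfp879 (chr11:50840552-50842552) was at 63.2% in siCon and 60.6% in siH19 over 10 cytosines. Zfp503, a transcriptional repressor of the NET family (chr14:21988601-21990601), was at 59.9% and 58.9% over 63 cytosines. Zfp819 (chr7:43606169-43608169) was at 53.8% and 51.4% over 12 cytosines, and Zfp853 (chr5:143292623-143294623) at 42.8% and 38.9% over 50. These 4 pairs of values had overlapping intervals.

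Zfp872 (chr9:22187090-22189090) was at 40.6% (35.5 to 45.9) in siCon and 51.1% (46.5 to 55.8) in siH19 over 15 cytosines. Its summed shares differed by over 10 points, but reads at the same cytosine differed by a weighted 1.08 points (-4.66 to 6.82), so the gap of the summed shares was not seen at matched cytosines. Zfp583 (chr7:6330285-6332285) had 240 of 615 methylated reads in siCon and 145 of 439 in siH19 over 16 cytosines, a weighted difference of -6.15 points (-11.8 to -0.527). Zfp750, an epidermal differentiation factor, had only 9 cytosines and was at 78.7% and 87.9%. Methylation of these promoters was not limited to the edge of the window. Of 15 with at least 5 cytosines within 250 bp of the start, 13 were at 20% or more there in both libraries and 0 were under 10% in both.

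**Figure D3:**
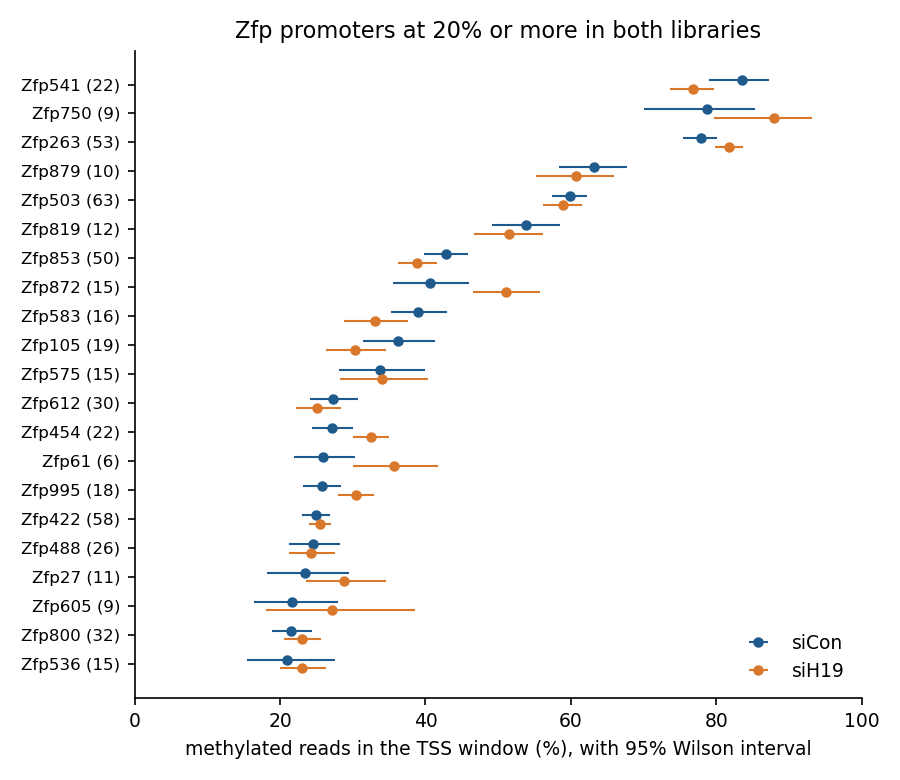
Methylated reads (x axis, %) in the promoter window of the 21 Zfp genes at 20% or more in both libraries, ordered by siCon, with 95% Wilson intervals and the number of compared cytosines in parentheses. Levels run from 20.9% (Zfp536) to 83.6% (Zfp541) in siCon, and siCon (blue) and siH19 (orange) keep close to each other, with the widest gap of summed shares at Zfp872.

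The better known Zfp genes had low promoters apart from one. Of 20 such genes found, 17 promoters were tested, and their levels ran from 0.184% to 24.9% in siCon and from 0.179% to 25.5% in siH19. The highest was Zfp422, at 24.9% (23.0 to 26.8) and 25.5% (24.1 to 27.1) over 58 cytosines. Zfp445, which keeps methylation at imprinted regions, was at 1.14% and 0.558%. Zfp568, a KRAB repressor of the placental Igf2 transcript, was at 0.932% and 0.179%. Zfp809, which silences murine leukaemia virus through its primer binding site, was at 2.38% and 2.34%. Zfp423, an adipocyte determination factor, was at 2.55% and 3.28%, and Zfp281, a regulator of pluripotent cells, at 0.609% and 0.793%. The imprint regulator Zfp57 had 0 compared promoter cytosines. By the Mantel-Haenszel test with Benjamini-Hochberg adjustment, 0 of the 17 passed at an adjusted p under 0.05. Of all promoters 5.16% were higher and 2.88% lower at that adjusted threshold. An unadjusted p under 0.05 was found for 3 higher and 2 lower, where 13.8% of all promoters were higher and 8.63% lower at that threshold.

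Zfp last exons were mostly methylated. The median level was 91.0% in siCon and 90.6% in siH19 over 106 genes, with interquartile ranges from 78.4% to 96.2% and from 75.6% to 96.3%. Over the 3766 tested last exons of the other genes the medians were 70.4% and 71.3%, with lower quartiles of 34.0% and 33.9%. Levels over 80% were found in 77 Zfp last exons in siCon (72.6%) and 75 in siH19 (70.8%), against 40.3% and 39.6% of the others. Nearness to a start moved with this level. Among last exons more than 1 kb from any annotated protein-coding start, the siCon median was 91.5% over 100 Zfp genes and 78.0% over 2940 other genes. Among those within 1 kb of a start it was 72.4% over 6 Zfp genes and 26.4% over 826 others. Last exons close to a start thus made up 6 of the 106 Zfp exons and 826 of the 3766 others, and the medians of the family and the other genes also lay apart when these were set aside. The gap differed by CpG content of the exon. At an observed to expected CpG ratio of 0.5 or more, siCon medians were 91.9% over 23 Zfp genes and 36.4% over 1069 others. From 0.3 to 0.5 they were 92.5% over 64 and 76.7% over 1644. Below 0.3 they were 73.4% over 19 Zfp genes and 76.8% over 1053 others, so the family was not higher there.

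Within one gene the contrast was steep. In the 94 Zfp genes with both regions tested, the last exon was more methylated than the promoter in 90 genes in siCon (95.7%) and 91 in siH19 (96.8%). The regions were not always separate: every compared last-exon cytosine of Zfp281 lay inside its promoter window. The median gap was 88.4 points in siCon and 83.9 in siH19, and 81 genes (86.2%) had a gap over 50 points in each library. In the 3074 other genes with both regions the last exon was higher in 84.1% in both libraries, with median gaps of 56.8 and 57.6 points. The genes that went the other way in siCon were Zfp503, with 59.9% in the promoter and 39.2% in the last exon, Zfp872, with 40.6% and 27.4%, Zfp641, with 15.4% and 8.07%, and Zfp36, with 3.68% and 1.21%. The widest gap in siCon was that of Zfp516, from 0.885% to 99.4%.

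Finger-coding sequence was compared with the rest of these exons. Summed over genes, cytosines inside C2H2 fingers were at 74.7% in siCon and 76.3% in siH19 over 1253 cytosines of 103 genes. Coding sequence outside fingers was at 59.8% and 55.2% over 1508 cytosines of 125 genes, and non-coding sequence of the last exon was at 72.1% and 70.8% over 267 cytosines of 60 genes. The value outside fingers included 298 cytosines of 5 genes without a finger by the pattern, at 29.0% and 24.3%, most of them in Zfp703 and Zfp503. Without those genes it was 70.5% and 67.4% over 1210 cytosines. Taken per gene with at least 5 cytosines, the medians were 94.7% and 95.5% in fingers (48 genes), 91.0% and 92.2% in other coding sequence (69 genes) and 87.4% and 81.6% in non-coding sequence (18 genes), so these medians come from different sets of genes. In the 35 genes with at least 5 cytosines of both coding kinds, the fingers were higher in 20 and lower in 15 in siCon, and higher in 23 and lower in 12 in siH19. The median gap was 1.55 points and 1.60 points. Of 88 other protein-coding genes with any compared finger cytosine in the last exon, the 43 with at least 5 had finger medians of 92.8% and 91.7%. In Zfp316, finger cytosines were at 94.3% in siCon and the other coding cytosines at 97.4%, and in Zfp853 they were at 66.1% and 38.4%. The order of the parts thus varied from gene to gene.

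The last exons of Zfp90, Zfp566 and Zfp787 were the highest in siCon among those with at least 10 cytosines. Zfp90 (chr8:106423913-106425889) had 152 of 154 methylated reads in siCon (98.7%, 95.4 to 99.6) and 152 of 157 in siH19 (96.8%, 92.8 to 98.6). Zfp566 (chr7:30077337-30078618) was at 98.1% and 95.5% over 11 cytosines. Zfp787 (chr7:6131491-6133171) was at 97.9% and 98.4% over 69 cytosines. Their intervals overlapped between the libraries. In siH19 the highest were Zfp790, at 97.5% in siCon and 98.8% in siH19 over 10 cytosines, and Zfp462, at 96.2% and 98.6% over 12.

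Of the last exons with at least 10 cytosines, 5 were under 20% in siCon. Zfp281 (chr1:136625268-136630053, 31 cytosines) had 11 of 1294 methylated reads in siCon (0.850%, 0.475 to 1.52) and 21 of 2287 in siH19 (0.918%, 0.601 to 1.40). All 31 lay in the stretch of 300 bases shown above, inside the gene's promoter window. The rest of that 4786 bp exon had no compared cytosine. Zfp36 (chr7:28376784-28378493, 20 cytosines) was at 1.21% and 1.05%. Zfp830 (chr11:82764345-82765935, 41 cytosines) was at 3.04% and 2.07%. Zfp830 is a single-exon gene whose last exon starts at the transcription start, and the last exon of Zfp281 begins 367 bp after the start and that of Zfp36 1760 bp after it. The other low exons lay far from the gene's own start. Zfp771 (chr7:127253805-127254803, 189 cytosines) was at 4.58% (4.11 to 5.10) and 5.81% (5.31 to 6.36), 9531 bp after the start, and its exon had an observed to expected CpG ratio of 1.14 and 69.3% GC. Its weighted difference was 1.08 points (0.427 to 1.74, Mantel-Haenszel chi-square adjusted p = 0.0612). Zfp641 (chr15:98285585-98289220, 11 cytosines) was at 8.07% (6.22 to 10.4) and 15.4% (12.3 to 19.1), 6941 bp after the start. Reads at the same cytosine of Zfp641 differed by a weighted 4.14 points (0.582 to 7.70, Mantel-Haenszel chi-square adjusted p = 0.220). Over the 5 low exons the median distance from the start was 1760 bp, and over the 56 exons above 80% it was 12030 bp, with ranges from 0 to 9531 bp and from 818 to 379644 bp.

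Several last exons changed level along their length, and did so at the same place in both libraries. The genes named for this were chosen after their values were seen. In Zfp703, a NET family repressor without C2H2 fingers by the pattern used, the first 200 bp of the last exon were at 1.32% in siCon and 0.132% in siH19. The stretch from 600 to 800 bp was at 25.3% and 22.4%, and that from 800 to 1000 bp at 83.5% and 83.1%. In its family member Zfp503 the level was 7.19% and 4.70% from 200 to 400 bp and 90.2% and 92.1% from 800 to 1000 bp. Zfp771 fell the other way, from 13.2% and 15.9% in its first 200 bp to 0.514% and 0.790% in the next. Zfp316 stayed at 91.1% or more in siCon over the steps up to 2600 bp, and Zfp697 stayed at 80.2% or more in siCon.

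**Figure D4:**
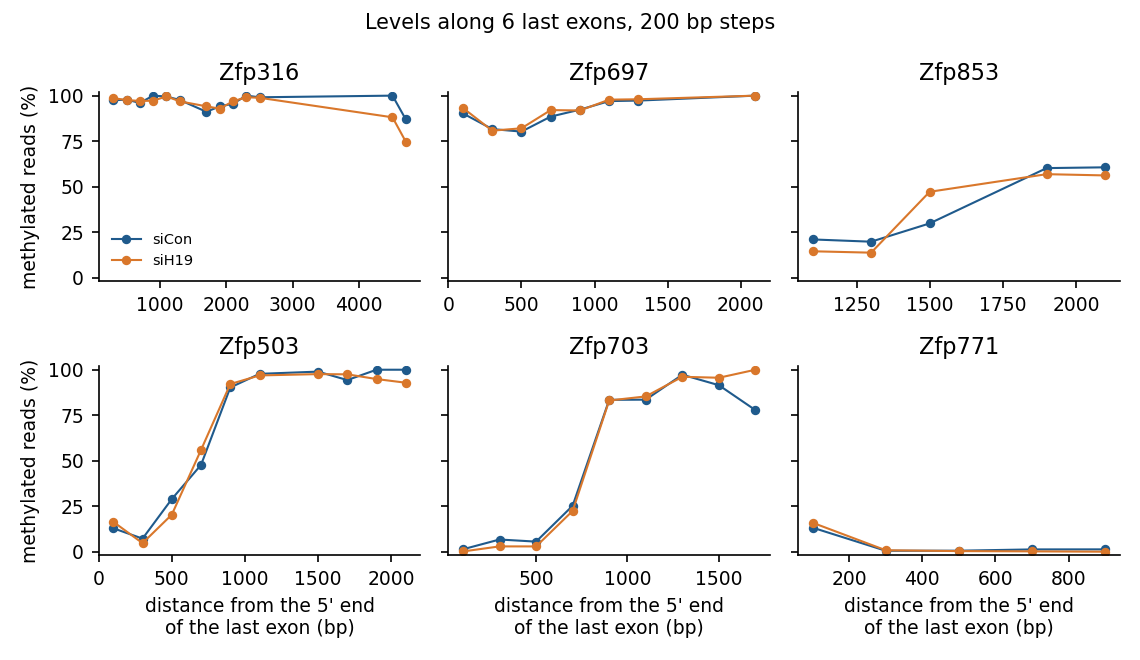
Methylated reads (y axis, %) in 200 bp steps from the 5′ end of the last exon (x axis, bp) in 6 Zfp genes, siCon in blue and siH19 in orange; steps without a compared cytosine are left out. Zfp703 and Zfp503 pass from low to high near 600 to 1000 bp in both libraries, Zfp316 and Zfp697 are high in nearly every step with a compared cytosine, though much of their exons had none, and Zfp771 is low apart from its first 200 bp.

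Between the libraries, no Zfp region passed the test. Within each region, reads of the same cytosine were compared and the differences, siH19 minus siCon, were combined over cytosines with Mantel-Haenszel weights and tested by the Mantel-Haenszel chi-square test. A region was called at an adjusted p under 0.05 (Benjamini-Hochberg over all tested promoters or all tested last exons) and a weighted difference of at least 10 points. By this test 0 of 250 Zfp promoters and 0 of 106 Zfp last exons were called. The levels limited this count. In siCon 210 of the 250 promoters were under 10%, so a fall of 10 points was barely possible there. The last exons had a siCon median of 91.0%, which left many of them little room to rise by 10 points. Over all protein-coding genes 0.138% of promoters passed as higher and 0.0765% as lower, and 0.207% of last exons passed as higher and 0.155% as lower. At such shares of calls, a count of 0 among the Zfp regions was near the background. At an unadjusted p under 0.05 there were 55 Zfp promoters, 35 higher and 20 lower (13.8% and 8.63% of all promoters), and 9 Zfp last exons, 4 higher and 5 lower (8.01% and 5.45% of all last exons). With Fisher's test on summed reads and the same limits, 1 Zfp promoter was higher and 0 were lower, where 1.10% and 0.581% of all promoters were called. By that test 1 Zfp last exon was higher and 2 were lower, where 2.40% and 1.68% of all last exons were called.

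The differences were small in both directions. The median weighted difference of Zfp promoters was 0.12 points, with 143 higher and 106 lower in siH19, beside 0.08 points over all promoters. For Zfp last exons it was 0.34 points, with 64 higher and 42 lower, beside 0.13 points over all last exons. Differences ran from -7.29 to 7.30 points in promoters and from -9.91 to 10.4 points in last exons. In 244 promoters (97.6%) and 92 last exons (86.8%) the whole 95% interval lay within 10 points of 0, so a difference of that size was outside the interval there, for these 2 libraries. Promoters near 0% had little room for a fall of 10 points in any case. The largest was the last exon of Zfp709, with 8 cytosines and 58.5% and 58.9% by summed reads, at 10.4 points (1.89 to 18.8, Mantel-Haenszel chi-square p = 0.0237, adjusted p = 0.267).

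**Figure D5:**
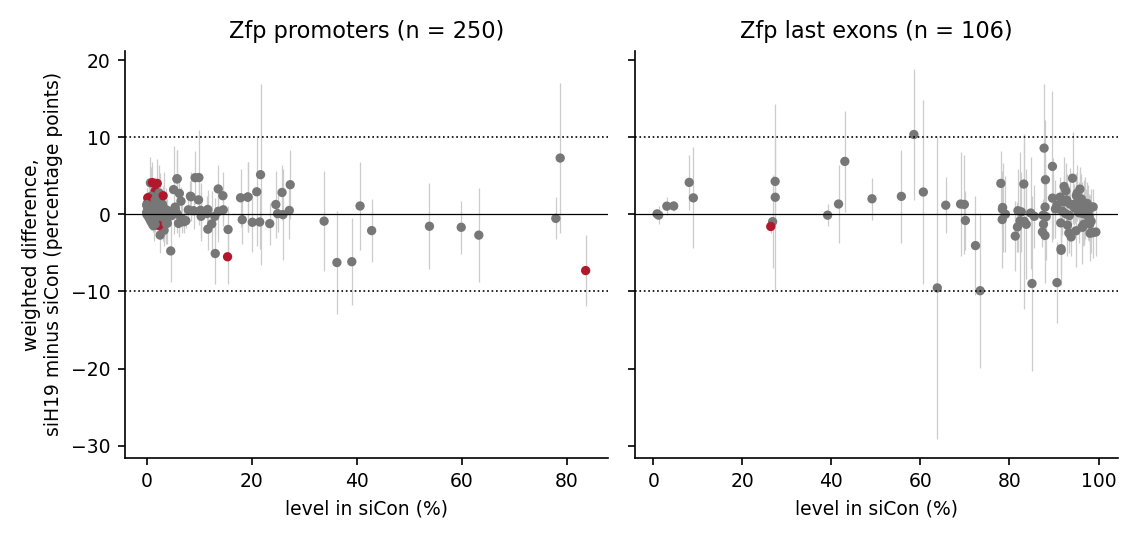
Weighted difference, siH19 minus siCon (y axis, percentage points, 95% interval in grey), against the level in siCon (x axis, %) for 250 Zfp promoters and 106 Zfp last exons; red points have an adjusted p under 0.05 and dotted lines mark 10 points. The red points, 16 promoters and 1 last exon, all lie inside the dotted lines.

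With no minimum difference, 16 Zfp promoters passed the adjusted threshold, 10 higher and 6 lower, where 5.16% of all promoters were higher and 2.88% lower. Most were unmethylated promoters that moved by a few points. The promoter window shared by the KRAB genes Zfp942 and Zfp943 on chromosome 17 had 3 of 1454 methylated reads in siCon (0.206%) and 41 of 1756 in siH19 (2.33%), a difference of 2.14 points (1.37 to 2.91, Mantel-Haenszel chi-square adjusted p = 0.000108). Both symbols rest on the same 31 cytosines (windows overlapped in 4 pairs of tested Zfp genes), and the 16 therefore rest on 15 separate windows. In the KRAB gene Zfp266, 2 of 1583 reads were methylated in siCon (0.126%) and 30 of 1781 in siH19 (1.68%), a difference of 1.44 points (0.774 to 2.10, chi-square adjusted p = 0.00304). In the KRAB gene Zfp426 the direction was opposite, with 21 of 1995 reads (1.05%) against 2 of 2240 (0.0893%), a difference of -0.923 points (chi-square adjusted p = 0.00323). The largest of the 16 was Zfp541, whose summed levels are given above, at -7.29 points (-11.9 to -2.68, chi-square adjusted p = 0.0438). For Zfp641 it was -5.50 points (chi-square adjusted p = 0.0369).

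Among last exons, Zfp703 alone passed without a minimum difference, where 1.14% of all last exons were higher and 0.620% lower. It had 1277 of 4840 methylated reads in siCon (26.4%) and 1492 of 6945 in siH19 (21.5%), a weighted difference of -1.58 points (-2.43 to -0.718, chi-square adjusted p = 0.0248). The next was Zfp688, at 90.7% and 85.0%, with a weighted difference of -8.85 points (-14.1 to -3.57, chi-square adjusted p = 0.0609). Reads summed over a region could differ where its cytosines did not. The last exon of Zfp775 was at 87.6% in siCon and 65.2% in siH19 by summed reads, and the weighted difference of its 24 cytosines was -0.122 points (-2.22 to 1.98).

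Single cytosines with a change of at least 33 points and an unadjusted p under 0.05 in Fisher's exact test were called strongly changed, as the study did for all CpGs. Of 11246 compared cytosines in Zfp promoters 13 were strongly higher and 8 lower in siH19, beside 0.190% and 0.215% of all promoter cytosines. Of 3028 in Zfp last exons 6 were higher and 7 lower, beside 0.513% and 0.450% of all last-exon cytosines. After Benjamini-Hochberg adjustment over all compared cytosines 0 had an adjusted p under 0.05, beside 90 strongly changed ones among all 1795680. An unadjusted p under 0.05 was found for 39 higher and 72 lower promoter cytosines and for 40 higher and 29 lower last-exon cytosines. Of all compared cytosines of protein-coding genes, 0.733% were higher and 0.837% lower at that threshold in promoters, and 1.63% and 1.41% in last exons.

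At the cytosines with the lowest p, the other strand of the same CpG moved the same way in some genes and not in others. In the last exon of Zfp853 (chromosome 5, position 143288262, plus strand) 0 of 20 reads were methylated in siCon and 30 of 54 in siH19 (55.6%, Fisher's exact p = 5.83e-06, adjusted p = 0.0702). The cytosine on the other strand of that CpG was at 47.8% and 44.4%. In the Zfp503 promoter (chromosome 14, position 21989395, plus strand) 4 of 12 reads were methylated in siCon (33.3%) and 26 of 26 in siH19 (Fisher's exact test, adjusted p = 0.0952). In the Zfp791 last exon (chromosome 8, position 85110164, plus strand) 46 of 55 reads were methylated in siCon (83.6%) and 21 of 43 in siH19 (48.8%, Fisher's exact test, adjusted p = 0.484), while the other strand was at 4.00% and 6.25%. Whether a C3H variant lies at this CpG was not tested. In the promoter of Zfp3 (chromosome 11, position 70764082, plus strand) the values were 6 of 10 reads and 2 of 51, with the other strand at 0% in both libraries. In the Zfp541 promoter (chromosome 7, position 16061815, minus strand) 12 of 12 reads were methylated in siCon and 14 of 32 in siH19 (43.8%), and the other strand was also lower in siH19, at 91.7% over 24 reads and 64.9% over 57. In the Zfp703 last exon (chromosome 8, position 26979302, minus strand) 10 of 12 reads were methylated in siCon and 6 of 22 in siH19, and the other strand was at 61.5% over 26 reads and 39.1% over 46. The Zfp612 promoter cytosine went from 0 of 32 reads to 8 of 24, with the other strand at 15.9% and 22.5%. At the cytosine of Zfp316 (chromosome 5, position 143253939, plus strand) the level was 27.3% in siCon over 11 reads and 89.2% in siH19 over 37, with the other strand at 75% and 77.8%.

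The strands of one CpG were also compared within each library. Of 5040 CpGs with both strands compared in Zfp promoters, 1.37% in siCon and 1.11% in siH19 had strands that differed at an unadjusted Fisher's exact p under 0.05. Between the libraries, 0.992% of the same plus-strand cytosines and 1.05% of the minus-strand ones differed at that threshold. In last exons, over 1303 CpGs, strands differed in 2.99% and 1.92%, and libraries in 2.69% and 2.07%. At this threshold, differences between libraries were about as frequent as those between strands of one library. The median cytosine was at 0% in both libraries in promoters, and at 94.4% in siCon and 94.1% in siH19 in last exons. Near either end of the scale Fisher's test can seldom pass, so like shares say little about spread. Whether C3H variants added to the strand differences was not tested.

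Domain structure and position went with the levels as follows. Promoters of the 95 tested genes that matched the KRAB pattern had a median of 1.97% in siCon and 2.07% in siH19, and those of the 155 unmatched genes, which include known KRAB genes such as Zfp445 and Zfp568, 1.23% in both. Last exons of 35 matched genes had medians of 93.3% and 93.1%, and those of 71 unmatched genes 89.7% and 89.6%. With 15 or more fingers the last-exon medians were 94.5% and 96.6% over 19 genes, and with 0 to 4 fingers they were 74.1% and 79.7% over 18 genes. Between these classes the medians were 91.6% and 90.5% with 5 to 9 fingers (31 genes). With 10 to 14 fingers they were 88.9% and 91.4% (38 genes), so the siCon level did not rise steadily with finger number.

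In 17 runs of at least 5 Zfp starts no more than 250 kb apart stood 144 of the 357 genes. Their tested last exons had medians of 94.2% and 94.9% over 37 genes, against 87.6% and 85.1% over 69 genes outside runs, and the promoters had medians of 1.37% and 1.52% inside and 1.38% and 1.40% outside. Chromosome 7 held 89 of the genes. The run from Zfp786 to Zfp746 on chromosome 6 had 7 tested promoters from 0.381% to 10.2% in siCon and 4 last exons from 92.6% to 97.6%. The run from Zfp677 to Zfp946 on chromosome 17, with 18 genes matching the KRAB pattern, had 14 tested promoters with a median of 5.15% in both libraries and 2 at 20% or more. Coverage of the runs was uneven: the run from Zfp990 to Zfp600 on chromosome 4 had no tested region.

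Promoter sequences of RefSeq on GRCm38, from 250 bases before to 50 after the start, were found for 295 Zfp genes and 15385 other genes. The letters ACTACAATT, part of the site bound by ZNF143, were present on either strand in 10 Zfp genes (3.39%) and in 0.578% of the other genes (0.631% of all). CGCATGCG, the core of the NRF1 site, was found in 5.08% and 2.87%, AAGATGGC, part of the YY1 site, in 6.10% and 3.57%, and TATAAA in 7.80% and 14.5%. These are counts of letters and not of bound sites. Of the 10 genes with ACTACAATT, 7 had a tested promoter, from 0.407% to 27.1% in siCon with a median of 0.972%, and from 0.0951% to 32.4% in siH19 with a median of 1.36%. The highest of them was Zfp454.

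Genes of the corepressors and enzymes that act with KRAB proteins were listed for comparison. Of 25 found, 23 promoters were tested, with medians of 0.835% in siCon and 1.10% in siH19 and weighted differences from -1.94 to 1.34 points. By the Mantel-Haenszel test 0 were called, and Fisher's test on summed reads also called 0 (of all promoters, 1.10% were called higher and 0.581% lower by it). An unadjusted p under 0.05 was found for 4 higher and 1 lower, beside 13.8% and 8.63% of all promoters. With no minimum difference 3 passed, all higher, beside 5.16% of all promoters higher and 2.88% lower. They were Daxx, a chaperone of histone H3.3, at 0.963% and 2.04% (1.34 points, chi-square adjusted p = 0.000430), Pphln1 at 0.768% and 1.12% (0.552 points) and Fam208a at 8.19% and 9.95% (1.23 points), the last 2 encoding subunits of the HUSH silencing complex. Trim28, the direct partner of the KRAB box, had 0 compared promoter cytosines. Setdb1, with 8 cytosines, was at 12.6% and 16.1%. Dnmt1, the maintenance DNA methyltransferase, was at 73.3% and 73.9% over 8 cytosines, with 86 reads in siCon and 199 in siH19. Its window lay around the outermost annotated start, and whether that start was used in these cells was not tested.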

How the data were processed

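Genomic DNA from 1 siCon and 1 siH19 library of myotubes was compared. Per the methods, the authors digested DNA with TaqαI and MspI, converted it with bisulfite, aligned reads with Bismark in non-directional mode and took the level as C over C or T. The submitters' processing notes name mm10 and bcl2fastq 1.8.4. The deposited files held 1 line per CpG cytosine: the authors' read counts, written as text with a percentage, and a score, the level on a scale up to 1000, which was used only to check the parsed counts (100% matched). Removal of duplicates and handling of C3H variants are not given in the sources used here.

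All 5779755 autosomal positions lay on CpGs of GRCm38. Genes, exons and coding sequence came from the GENCODE basic annotation, and fingers and KRAB boxes were matched in the translated coding sequence, since no RefSeq protein was at hand. Cytosines needed 5 reads per library and lay outside CCGG and TCGA, and regions needed 5 cytosines. Regions were compared with a Mantel-Haenszel test stratified by cytosine and single cytosines with Fisher's exact test, both adjusted (Benjamini-Hochberg) over all genes or cytosines, with Python 3.11.15, NumPy 2.4.6, SciPy 1.17.1 and pandas 2.3.3. Neighbouring cytosines share reads, so these p-values are too small. Code was tested on simulated data. Intervals are Wilson intervals for shares and Sato intervals for weighted differences. The genes and lists were chosen with earlier results of these data known.

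Named genes were up to 5 called regions per direction (there were 0), up to 8 promoters with the highest siCon level among those with at least 10 cytosines and 20% in both libraries, the 3 highest and 5 lowest last exons with at least 10 cytosines, strongly changed cytosines with an adjusted p under 0.05 or else the 2 of lowest p per direction and region, a list of 22 better known genes, of which Zfp264 was not found and Zfp322a did not match the symbol rule, and the runs. Other names were chosen after their values were seen. Alternatives covered read depth, restriction sites, repeats, region limits, test and minimum difference.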

Additional observations from a re-analysis of the deposited data

How the results depend on the processing

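The counts of 0 called Zfp promoters and 0 called Zfp last exons held with at least 10 reads per cytosine, with overdispersion, with 1 cytosine per 100 bp and strand, with repeats left out, with both strands moving the same way, with a 20-point minimum, with a 500 bp window, and with the coding part, the union or the start-distant part of last exons. With restriction-site cytosines kept, 1 promoter (Zfp146, lower) and 1 last exon (Zfp420, higher) were called. Over all genes 18 of 14281 promoters and 14 of 6065 last exons were called at that setting. With Fisher's test on summed reads, 1 promoter (Zfp872) and 3 last exons (Zfp276, Zfp395, Zfp775) were called. Over all genes 220 of 13071 promoters and 158 of 3872 last exons were called by it. With no minimum difference, 16 promoters, 1 last exon and 3 corepressor promoters passed; the corepressor alternatives were chosen after seeing the data. Strongly changed cytosines rose from 21 to 125 in promoters and from 13 to 36 in last exons with restriction sites kept, fell to 9 and 6 with the strands of a CpG summed, and were 0 and 0 at an adjusted p under 0.05. Over all compared autosomal cytosines, 17174 of 1795680 were strongly changed, and 46018 of 3296992 with restriction sites kept. With the strands summed it was 7157 CpGs, and at an adjusted p under 0.05 it was 90 cytosines.

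With restriction sites kept, Zfp promoters had a median of 17.2% (siCon) and 16.3% (siH19); the medians were 1.27% and 1.38% without repeats, and 1.53% and 1.73% as the mean of single cytosines. Cytosines inside CCGG or TCGA in Zfp promoters were at 50.8% and 51.1% by summed reads, against 3.47% and 3.48% outside; the cause was not tested. The median last-exon level in siCon was 90.1% with restriction sites kept, 91.4% without repeats and 90.4% as the mean of single cytosines, and in siH19 it was 92.0% with at least 10 reads.

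No paired analysis was possible because each group had 1 library. Too few compared cytosines outside CCGG and TCGA left 107 promoters and 251 last exons of the 357 genes untested.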
